A study of Mus musculus with 6 samples.

Results

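The dentate gyrus spots were the 15 spots of each coronal section with the highest summed level of Prox1, C1ql2, Dsp and Lct, 4 transcripts of dentate granule cells. There were 90 such spots, 15 in each of 6 sections, among 16741 spots with at least 500 UMIs. The Visium assay captures transcripts on barcoded spots under the section and counts each once by its unique molecular identifier (UMI). One spot may cover parts of several cells, granule cells and others, so values describe places and not single cells. The sections were 16 µm thick and came from frozen brains of male mice of the C57BL/6J strain, at 6 months (young), 18 months (middle) and 21 months (old). No group carried a genetic change or a treatment, and each age had 2 sections, which the labels describe as 2 males per age. Slide 1 held young 1, young 2, middle 1 and old 1, and slide 2 held middle 2 and old 2, so slide and age overlap in part.

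The dentate gyrus is the entry station of the hippocampus. Its densely packed granule cells receive the perforant path from the entorhinal cortex and send mossy fibres to CA3. It is one of the few regions of the adult rodent brain where new neurons are made, and their production declines with age. Granule cells are recognised by Prox1, the transcription factor that sets and keeps their identity, and mature ones by Calb1, the calcium buffer calbindin.

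The 4 transcripts were the basis of the choice, so their values are given as a description only. A spot's score was the sum over the 4 genes of ln(1 + UMIs per 10000 UMIs of the spot). Prox1 stood at 141, 218, 231, 219, 206 and 210 UMIs per 1000000 member UMIs (CPM) in young 1, young 2, middle 1, middle 2, old 1 and old 2, and all values below follow this order of sections. C1ql2, a secreted synaptic organiser of mossy fibres, stood at 382, 404, 419, 482, 410 and 497 CPM. Young 1 was lowest for both. Dsp, which codes for the junction protein desmoplakin, stood at 53.8, 199, 176, 147, 186 and 132 CPM. Lct, the lactase gene and a granule cell marker of mouse brain, stood at 37.0, 199, 222, 180, 241 and 220 CPM. For Dsp and Lct young 1 lay far below the other 5 sections. Among those 5, young 2 was the highest for Dsp, and the ages overlapped for Lct.

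The 15th spot, the last to be taken, had a score of 2.28 in young 1 and between 4.25 and 4.69 in the other 5 sections. The first spot left out had 2.21 in young 1 and between 4.16 and 4.64 elsewhere. From the 15th to the 16th spot the score went from 4.43 to 4.16 in middle 2, the widest gap of the 6 sections, and from 4.38 to 4.34 in old 1. A UMI of each of the 4 genes was found in 6 of the 15 members of young 1 and in 14 or 15 members of every other section. The same 6 were the only such spots in the whole of young 1, against 41 to 68 in the other sections. The section young 1 therefore held few spots with the full granule cell signature.

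**Figure D1:**
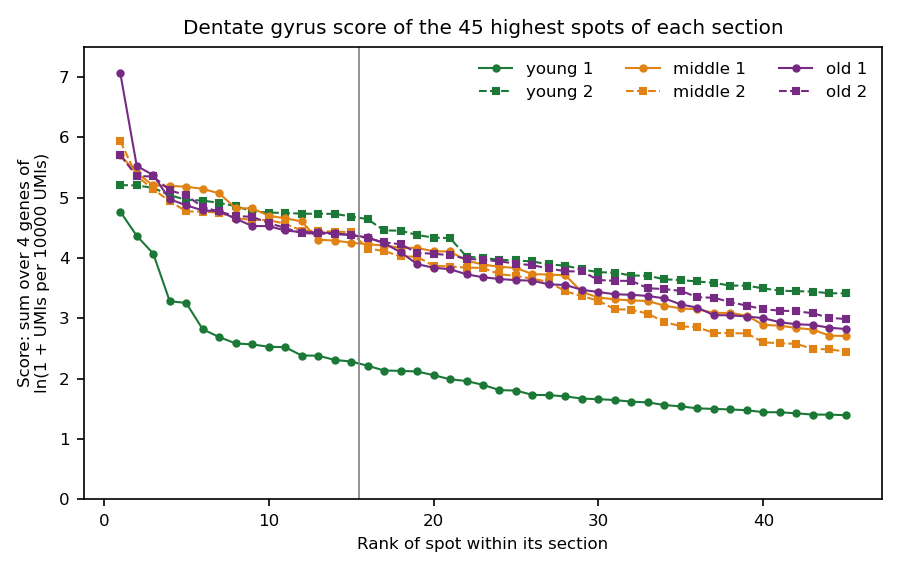
Score (y axis, sum of natural logs, no unit) of the 45 highest-scoring spots of each section, ranked from high to low (x axis), 1 point per spot and 1 line per section. The vertical line marks the limit after rank 15; young 1 runs below the other 5 sections at every rank, at 2.28 against at least 4.25 at rank 15.

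The sequences just upstream of the 4 genes are shown because these genes define the spots. Each is the 250 bases before the start site listed by RefSeq, on build GRCm38.p6, written 5′ to 3′ on the gene's strand, and for Prox1 the first of the listed start sites was taken. Capitals mark matches to the E-box letters CANNTG, the sequence read by basic helix-loop-helix factors such as Neurod1 and Bhlhe22, with both strands searched, which is the same since CANNTG is its own reverse complement in pattern.
C1ql2, chr1:120340332-120340581, plus strand: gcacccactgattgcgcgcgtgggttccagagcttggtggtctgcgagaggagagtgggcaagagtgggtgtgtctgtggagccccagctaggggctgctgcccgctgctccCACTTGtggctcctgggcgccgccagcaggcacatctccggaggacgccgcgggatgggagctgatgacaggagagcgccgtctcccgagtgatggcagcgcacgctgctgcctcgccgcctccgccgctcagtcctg
Prox1, chr1:190170828-190171077, minus strand: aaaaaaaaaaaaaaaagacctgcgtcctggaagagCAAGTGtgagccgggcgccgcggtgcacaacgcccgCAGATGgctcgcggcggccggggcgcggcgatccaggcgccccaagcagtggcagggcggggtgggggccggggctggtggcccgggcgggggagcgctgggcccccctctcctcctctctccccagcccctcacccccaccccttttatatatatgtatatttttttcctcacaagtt
Lct, chr1:128328319-128328568, minus strand: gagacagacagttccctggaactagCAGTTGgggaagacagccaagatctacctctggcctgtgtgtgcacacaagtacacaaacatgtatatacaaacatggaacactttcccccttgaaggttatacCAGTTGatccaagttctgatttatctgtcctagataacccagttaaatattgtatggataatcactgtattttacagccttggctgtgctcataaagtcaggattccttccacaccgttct
Dsp, chr13:38151044-38151293, plus strand: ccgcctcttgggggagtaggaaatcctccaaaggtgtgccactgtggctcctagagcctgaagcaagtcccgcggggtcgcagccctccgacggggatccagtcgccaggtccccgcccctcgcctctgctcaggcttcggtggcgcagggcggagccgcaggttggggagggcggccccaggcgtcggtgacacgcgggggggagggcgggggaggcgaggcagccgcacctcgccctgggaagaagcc
Prox1 and Lct each held 2 matches, C1ql2 held 1 and Dsp held 0. Of 32851 windows of the same length, 66.2% held at least 1 match and 31.8% at least 2, so these counts were ordinary. The GC content was 68.8% for C1ql2, 64.8% for Prox1, 72.4% for Dsp and 42.8% for Lct, against a median of 52.4% over all windows.

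Granule cell genes outside the score matched the label in 5 sections and only in part in young 1. The 14 other granule cell markers, among them Calb1, Synpr, Stxbp6 and Trpc6, summed to 831 CPM in young 1 and to 2926, 2669, 2203, 2350 and 2478 CPM in the other members, against 538 to 608 CPM in all other spots. Markers of the thalamus, which lies below the hippocampus in these sections, summed to 907 CPM in the members of young 1 and to between 70.8 and 108 CPM in the other members. Within young 1 the 2 kinds of members differed: the 6 with all 4 score genes had 2014 CPM of the 14 granule markers and 157 CPM of thalamus markers, and the other 9 had 242 and 1280 CPM. The same 6 also had more glial transcripts than the other 9, with 5535 against 2238 CPM of astrocyte markers, 7716 against 3519 CPM of myelin markers, 11930 against 3035 CPM of glia and immune genes and 278 against 20.2 CPM of meningeal markers. Both kinds of members in young 1 thus lay above the members of every other section for the astrocyte, myelin and glia and immune lists. Those 9 are thalamic by their leading markers, so the spots of young 1 go against the label for the most part.

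The other tissue in the members was measured by lists of markers. CA1 pyramidal markers summed to between 47.2 and 65.6 CPM and CA3 markers to between 127 and 219 CPM in the members, below the other spots of every section (208 to 258 and 272 to 326 CPM). CA2 markers summed to 703, 1920, 1966, 1674, 1583 and 1572 CPM in the members, above the other spots in young 2, middle 1 and old 1 (1719, 1618 and 1294 CPM) and below them in the other 3 sections. Only 2 of the 5 CA2 genes had enough counts for a test without young 1, so the CA2 sums rest mainly on 2 genes. The 3 markers of mossy cells, the excitatory cells of the hilus, summed to 10.5 to 24.9 CPM outside young 1. Choroid plexus markers, led by Ttr, the transthyretin gene, stood at 140, 1005, 71.6, 1059, 2901 and 1293 CPM, so that both old sections lay above the other 4, and the part of this tissue in the results was not tested. Astrocyte and myelin markers of young 1 (3334 and 4914 CPM) were the highest of the 6, with the other sections at 1340 to 1984 and 802 to 1322 CPM. Between sections, 0 to 4 member barcodes were shared, and a barcode stands for a place on the grid.

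**Figure D2:**
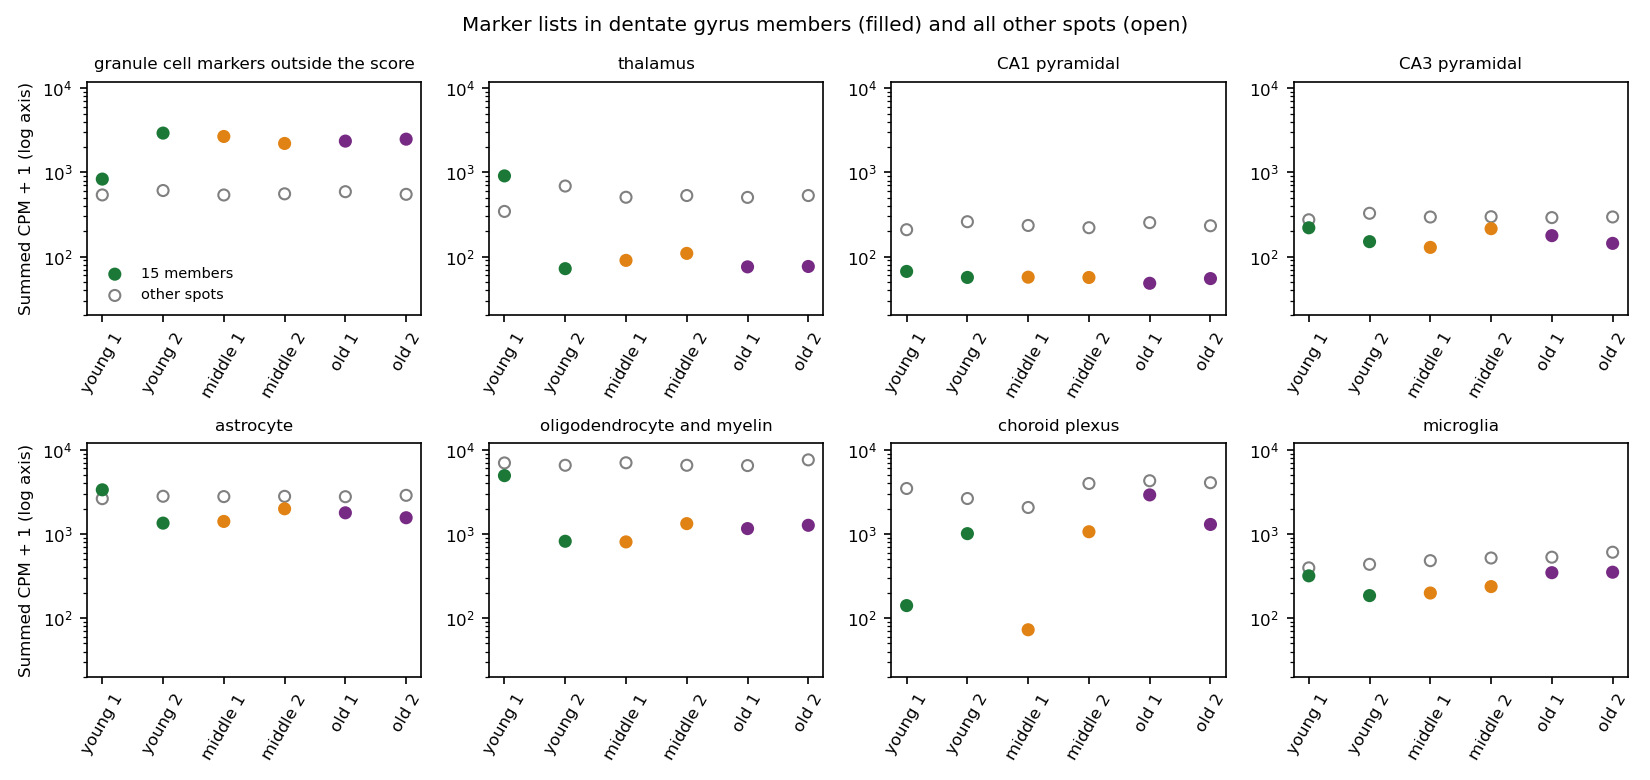
Summed CPM plus 1 (y axis, log scale) of 8 marker lists in the 15 members (filled) and in all other spots (open) of each section (x axis). Outside young 1, the members had 2203 to 2926 CPM of granule cell markers outside the score and at most 108 CPM of thalamus markers; young 1 had 831 and 907 CPM.

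The members of the 5 sections other than young 1 carried a long list of shared transcripts. Of 4679 genes with a mean of at least 50 CPM in members or in other spots, 359 were at least 2 times higher in the members in all 5 sections and 206 were at least 2 times lower. These values describe spots chosen by 4 of the same genes and carry no test. Besides the score genes, high ratios over the other spots were those of Gm34567 (36.1 times, median of 5 sections), Vwa3b (30.5 times), Slc26a10 (26.0 times) and Ntf3, the growth factor neurotrophin-3 (22.0 times). Trpc6, a cation channel, stood at 117 ± 21.0 CPM (SD, n = 5) in the members and at 7.06 CPM in the other spots, and Tnfrsf25 at 124 ± 16.5 against 7.66 CPM. Fam163b (549 ± 40.3 CPM, 9.16 times) and Dgkh, a diacylglycerol kinase (354 ± 63.0 CPM, 8.21 times), were among the most abundant of these genes. Egr1, an immediate early gene of active neurons, was lower in the members, at 41.1 ± 13.0 against 317 CPM in the other spots.

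Receptor and synapse genes of the members followed the same pattern of description. Among glutamate receptor subunits, Gria1 was at 668, 644, 527, 556 and 594 CPM in the 5 sections, 3.54 times the other spots, and Grin2a at 387, 344, 324, 340 and 314 CPM, 3.02 times. The GABA-A receptor subunit Gabra5 stood 3.26 times above the other spots. Nr3c2, the mineralocorticoid receptor, stood 5.46 times above them, at 190, 152, 125, 137 and 172 CPM. Nr3c1, the glucocorticoid receptor, stood at 0.873 times the other spots. Bdnf, the growth factor carried by mossy fibres, stood 2.68 times above them. For Gria1, Grin2a and Nr3c2 young 2 lay highest of the 5 sections and the middle and old sections overlapped.

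Member sums held 594405, 522300, 572602, 360845, 402928 and 372066 UMIs. The median member had 39003 UMIs in young 1 and between 23058 and 39132 elsewhere. Mitochondrially encoded genes took 12.4, 5.49, 6.93, 10.8, 8.93 and 7.19% of the member UMIs. The replicates of a group differed by 11 times counting error in young (chi-square per degree of freedom over genes), by 1.85 in middle and by 1.28 in old. In summed spots, fewer cells of a type and less RNA per cell cannot be told apart, and p-values measure only the spread between these sections.

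With all 6 sections, edgeR's quasi-likelihood test on the member sums called, with a Benjamini-Hochberg adjusted p below 0.05, 0 of 8004 genes (0%) between old and young, between middle and young, between old and middle, and along age in months. At an unadjusted p under 0.05 there were 279, 287, 58 and 578 genes, and DESeq2 called 0, 0, 0 and 1. Ighm, the constant region of the immunoglobulin heavy chain mu, had the smallest unadjusted p between old and young among genes with a mean of at least 50 CPM and no overlap (0.00106, log2 fold change 2.19 ± 0.48 (SE), adjusted p = 0.912). Next in the higher direction came 1110038F14Rik (1.06 ± 0.34), AC149090.1 (1.25 ± 0.40), Camkk2 (1.06 ± 0.34) and Gm47283 (0.93 ± 0.30). In the lower direction these were Acly, the citrate lyase of lipid synthesis (-1.14 ± 0.33), the chaperone Fkbp4 (-1.07 ± 0.32), Pdp1 (-1.73 ± 0.51), Dner (-1.66 ± 0.51) and Cfl2 (-1.03 ± 0.33). None of the 10 passed, with adjusted p = 0.912 for each. For middle against young the same order gave Ighm (1.92 ± 0.48), 1110038F14Rik, Cacng3, AC149090.1 and Dnal4 above, and Endod1 (-2.16 ± 0.52), Pdp1, Ppp2r5b, Rfk and Ina below, with adjusted p = 0.920 for each. For Pdp1 the values were 345, 126, 83.8, 63.7, 81.9 and 77.9 CPM and for Dner 182, 72.8, 76.8, 69.3, 49.6 and 40.3 CPM, in both cases with young 1 far above the rest.

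Since most members of young 1 were not granule cell spots, every comparison was repeated with the 5 other sections. There the young group is young 2 alone, whose spread is assumed to equal that of the other ages. In that fit 16 of 8120 genes (0.197%) were called between old and young, 12 higher (0.148%) and 4 lower (0.0493%) in old. Between middle and young 10 (0.123%) were called, 6 higher (0.0739%) and 4 lower (0.0493%). Between old and middle 2 (0.0246%) were called, both higher in old, and along age 20 (0.246%), 16 rising (0.197%) and 4 falling (0.0493%). The values below are from these 5 sections unless young 1 is named. DESeq2 on the same sums called 0 genes for old against young, 0 for middle against young and 1 (0.0123%) for old against middle. Without old 1 or without old 2, edgeR called 2 genes between old and young, and with slide as a block 5. Within slide 1, where young 2, middle 1 and old 1 lay together, old 1 differed from young 2 by -0.91 for Calb1, 1.58 for Ighm, 1.20 for Gm47283, 0.98 for Apoe and 1.1 for Gfap in log2(CPM + 1).

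The 4 genes lower in old were Calb1, Bhlhe22, Trpm7 and Api5, of which 1, Calb1, is on the list of granule cell markers. Calb1 (calbindin, chr4:15881264-15908064) stood at 113, 373, 196, 224, 199 and 177 CPM in the members. Young 2 lay above all middle and old sections, which overlapped, while young 1 lay below all of them. Calb1 fell between young 2 and old by 0.90 ± 0.19 on the log2 scale (edgeR, adjusted p = 0.00300) and between young 2 and middle by 0.75 ± 0.18 (adjusted p = 0.0488). Over all 6 sections the old-to-young value was -0.38 ± 0.41 (edgeR, adjusted p = 0.912). The call for old was lost without old 1, without old 2 and with DESeq2, and held under the other 18 of 21 alternatives. Single spots of young 2 ranged from 1.86 to 8.25 UMIs of Calb1 per 10000, with a UMI in all 15. The medians were 3.42 in young 2 against 1.52 to 2.24 in the middle and old sections, where 1 member or none lacked a UMI in each section.

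Bhlhe22, a basic helix-loop-helix factor of excitatory neurons, stood at 74.0, 364, 251, 261, 201 and 199 CPM. Among all other spots, 43.2% had a UMI of Bhlhe22 in young 2, against 30.5 to 34.0% in every other section. In the members outside young 1 the 3 ages did not overlap, with young 2 highest and both old sections lowest. The fall from young 2 to old was 0.78 ± 0.19 (edgeR, adjusted p = 0.0280), called under 11 of 21 alternatives and lost with slide as a block. Rfx3, a transcription factor of ciliated cells and granule neurons, had a UMI in 37.7% of all other spots of young 2. Every other section had it in 25.9 to 32.8% of these spots. In the members Rfx3 stood at 32.0, 260, 145, 125, 181 and 132 CPM. It fell from young 2 to middle by 0.84 ± 0.21 (edgeR, adjusted p = 0.0495, called under 8 of 21 alternatives), and its value for old was -0.64 ± 0.21 (adjusted p = 0.309). Trpm7, an ion channel with a kinase domain, stood at 25.2, 105, 34.9, 38.8, 34.7 and 40.3 CPM, and Api5, an inhibitor of apoptosis, at 47.1, 113, 31.4, 47.1, 42.2 and 45.7 CPM. Young 2 alone was high for both, and both fell in old (-1.40 ± 0.34 and -1.28 ± 0.33, edgeR, adjusted p = 0.0349 and 0.0489) and in middle (-1.43 ± 0.33 and -1.49 ± 0.32, adjusted p = 0.0283 and 0.0116). The calls for old were lost with slide as a block, with DESeq2 and without either old section, and held under 10 of 21 alternatives for Trpm7 and 8 of 21 for Api5. Those for middle held under 7 and 10 of 21.

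Of the 14 granule cell markers outside the score, 10 had a value below 0 between old and young 2 and 4 above, with a median of -0.19. Over all genes tested 50.1% lay above 0, with a median of 0.00157. The list leaned the same way in all other spots, where 3 of the 14 were above 0 and the median was -0.15. With all 6 sections 10 of the 14 were above 0 in the members, against 48.2% of all genes. There 0 were called and the median was 0.33. Npnt (-0.90 ± 0.37) and Trpc6 (-0.39 ± 0.25) did not pass, nor did Tdo2 (0.55 ± 0.45) or Rasl10a (0.35 ± 0.19) in the other direction. Synpr, a vesicle protein of mossy fibres, stood at 123, 490, 498, 344, 365 and 441 CPM, with overlapping ages. Prox1, C1ql2, Dsp and Lct, by which the spots were chosen, had values of 0.01, 0.25, -0.23 and 0.30.

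**Figure D3:**
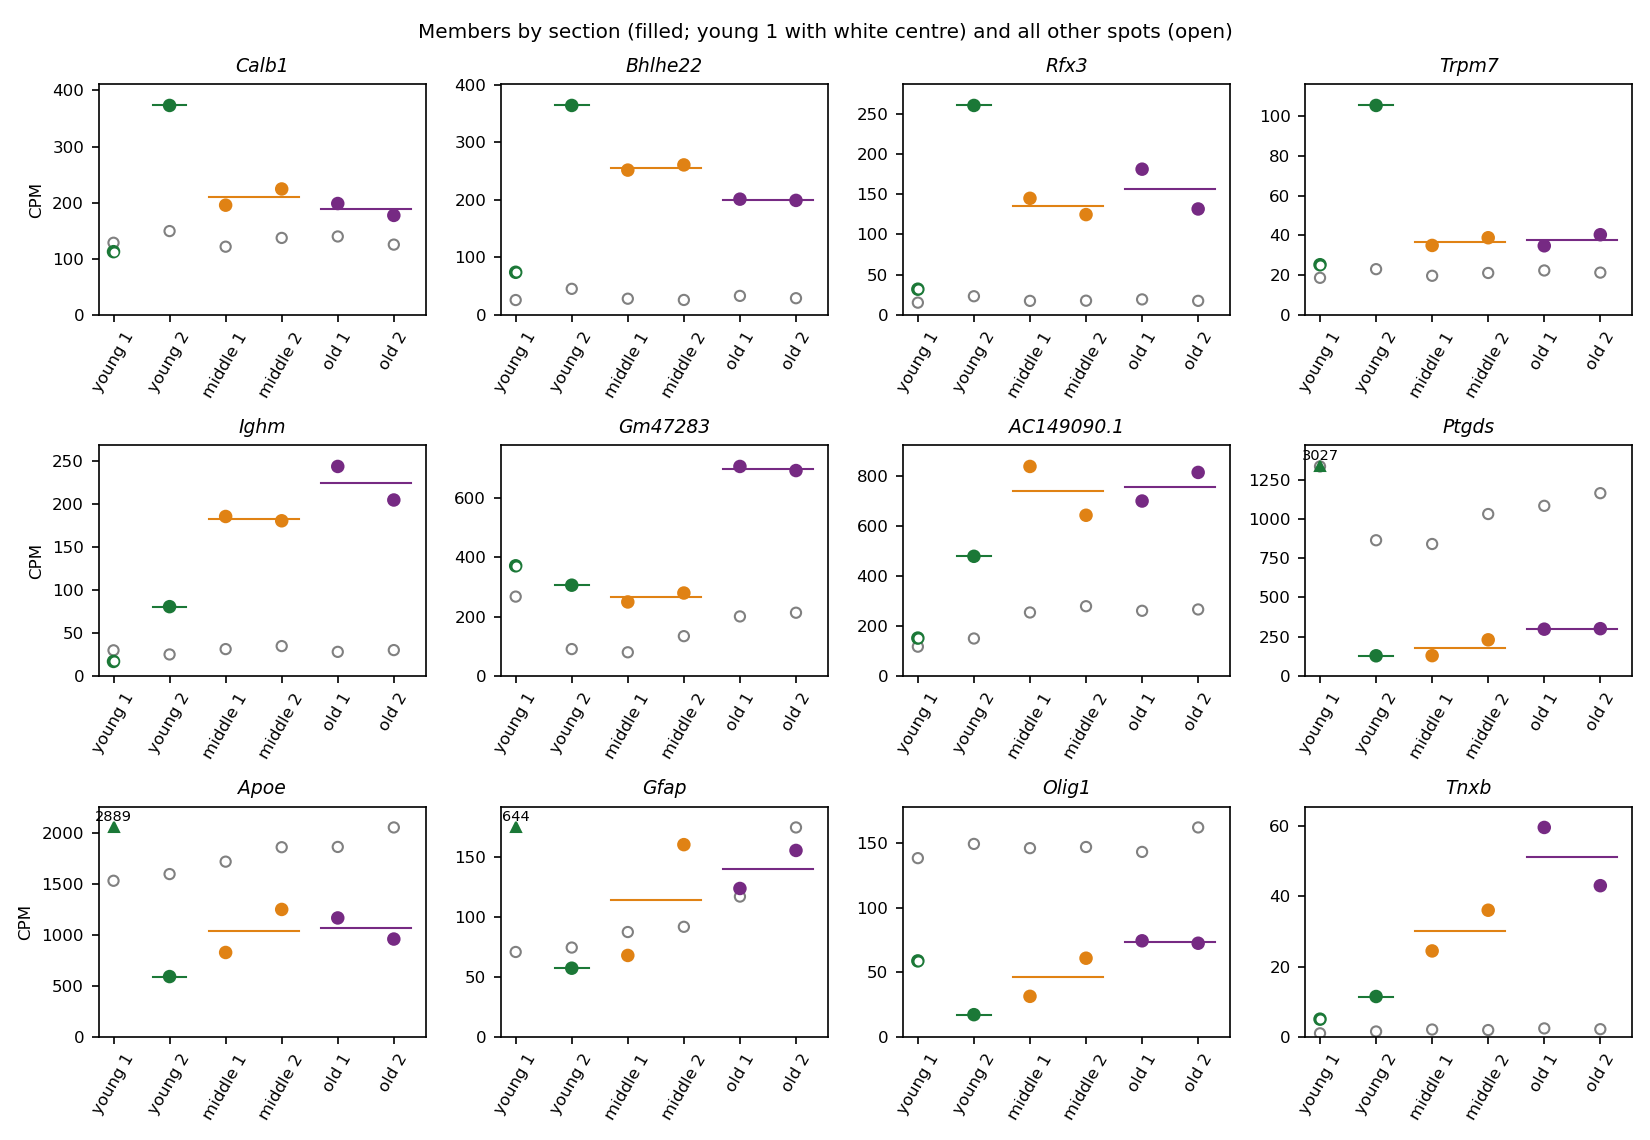
CPM (y axis, linear from 0) of 12 genes in the members (filled, with young 1 ringed) and in all other spots (open) of each section (x axis); short lines are group means without young 1, and a triangle with a number is a young 1 value above the axis. Calb1, Bhlhe22, Rfx3 and Trpm7 were highest in young 2, Ighm and Tnxb lowest in young 2 among the 5 sections, and Gm47283 was highest in both old sections.

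Ighm rose in the members with age. They held 16.8, 80.4, 185, 180, 243 and 204 CPM, and both young sections lay below both middle sections, which lay below both old sections. It rose by 1.56 ± 0.25 on the log2 scale in old (edgeR, adjusted p = 2.06e-06) and by 1.28 ± 0.25 in middle (adjusted p = 0.00398), and the call for old held under 20 of 21 alternatives, all but DESeq2. A UMI of Ighm was found in 6 and 12 of the 15 members of young 1 and young 2 and in all 15 of each middle and old section. All other spots held 24.9 to 34.6 CPM with no order by age. The members of young 1, at 16.8 CPM, lay below that range, and most of them were thalamic by their markers. Of the young sections, only young 2 thus gave a value mainly from granule cell spots. Of 10 other B and plasma cell genes, 7 to 10 were at 0 in each section's members, and the 10 together had 0 to 4 UMIs per section. Ighm (chr12:113418558-113422730) is an immunoglobulin constant gene in the annotation.

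Gm47283 (chrY:90784738-90816464) separated old from every other section. The members held 372, 306, 250, 280, 707 and 693 CPM. It rose by 1.28 ± 0.19 from young 2 to old (edgeR, adjusted p = 1.69e-07) and by 1.40 ± 0.16 from middle to old (adjusted p = 4.64e-15), and the latter was called under 22 of 22 alternatives to the 5-section fit, DESeq2 included. The rise was seen on both slides, with old 1 above middle 1 by 1.5 and old 2 above middle 2 by 1.31 in log2(CPM + 1). The level in all other spots was 268, 90.6, 79.8, 134, 201 and 213 CPM, where young 1 lay above both old sections. It lies in the pseudoautosomal region, whose sequence the X and Y chromosomes share, so its copies cannot be told apart here. AC149090.1, a gene on an unplaced scaffold, stood at 151, 479, 838, 643, 700 and 814 CPM in the members. Most members of young 1 were thalamic by their markers, and AC149090.1 lay below the rest in both young sections. It rose by 0.74 ± 0.19 in old (edgeR, adjusted p = 0.0490).

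Glial transcripts made up much of the rest of the higher calls. Apoe, the lipid carrier made mainly by astrocytes, stood at 2889, 592, 828, 1250, 1166 and 960 CPM, and Gfap, the astrocyte filament, at 644, 57.4, 68.1, 161, 124 and 156 CPM. Young 2 was lowest and young 1 highest for both. Apoe rose by 0.93 ± 0.19 in old (edgeR, adjusted p = 0.00265) and by 0.91 ± 0.19 in middle (adjusted p = 0.00794), and Gfap by 1.36 ± 0.30 in old (adjusted p = 0.00539). With slide as a block the calls of Gfap in old and of Apoe in middle were lost, and without either old section those of both genes in old. They held under 13 of 21 alternatives for Gfap, 16 of 21 for Apoe in old and 12 of 21 for Apoe in middle. With young 1 in the fit the signs turned, to -0.92 ± 0.69 for Apoe and -1.56 ± 0.98 for Gfap (edgeR, adjusted p = 0.912 for both). Astrocyte markers as a list summed to 3334, 1340, 1404, 1984, 1777 and 1553 CPM in the members, and their part in these results was not tested.

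Ptgds, the prostaglandin D synthase of meninges and oligodendrocytes, stood at 3027, 128, 129, 230, 298 and 301 CPM. It rose by 1.3 ± 0.22 between young 2 and old and by 0.79 ± 0.17 between middle and old (edgeR, adjusted p = 5.83e-06 and 0.0180, called under 16 of 21 and 11 of 22 alternatives), although the value with young 1 was -2.65 ± 1.17 (adjusted p = 0.912). Mbp, myelin basic protein, stood at 2360, 402, 459, 737, 625 and 653 CPM and rose by 0.75 ± 0.19 (edgeR, adjusted p = 0.0489). Olig1, a factor of the oligodendrocyte lineage, stood at 58.9, 17.2, 31.4, 61, 74.5 and 72.6 CPM and rose by 2.16 ± 0.46 (edgeR, adjusted p = 0.00436), from 9 UMIs in young 2 to 30 and 27 in old. In old 1 those 30 UMIs of Olig1 came from 6 of the 15 members. Dbi, the diazepam binding inhibitor of glia, rose by 0.86 ± 0.19 (edgeR, adjusted p = 0.00771). The calls of Olig1 (13 of 20 alternatives) and of Dbi (14 of 21) were lost with slide as a block and without either old section. Tnxb, tenascin X of the extracellular matrix, stood at 5.05, 11.5, 24.4, 36.0, 59.6 and 43.0 CPM, with the ages in order and not overlapping, and rose by 2.22 ± 0.56 (edgeR, adjusted p = 0.0482). The call of Tnxb was lost with slide or the replicate number as a block, with no filter, when thinned and without either old section, and held under 8 of 20 alternatives. Snhg11, a neuronal transcript, stood at 501, 312, 428, 382, 501 and 505 CPM and rose by 0.77 ± 0.19 (edgeR, adjusted p = 0.0364, called under 10 of 21 alternatives and lost with slide as a block). Meningeal markers summed to 106 CPM in young 1 and to 18.8 to 34.5 CPM in the other members, and the 4 haemoglobin genes, at 1.68 to 14.9 CPM in sum, had too few counts for a test. The myelin list summed to 816, 802, 1322, 1154 and 1263 CPM in the 5 sections, and its part in the Mbp and Olig1 values was not tested.

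As lists, glial genes lay above 0 between old and young 2 and few passed. Over all 8120 genes tested 50.1% lay above 0 and 0.197% were called, with a median of 0.00157. All 8 astrocyte markers were above 0, with 1 called (Gfap) and a median of 0.43. Of 7 oligodendrocyte and myelin markers tested of 8, 6 were above 0, 1 was called (Mbp) and the median was 0.63. All 6 microglial markers tested of 8 were above 0, 0 were called, and the median was 0.90. C1qa, a complement subunit of microglia, stood at 65.6, 13.4, 26.2, 41.6, 54.6 and 53.8 CPM (2.07 ± 0.54, adjusted p = 0.0561). Of 18 glia and immune genes tested of 32, 17 were above 0, 2 were called (Apoe and Gfap) and the median was 0.83. With all 6 sections the medians were -0.98 for astrocyte, -1.42 for myelin, 0.27 for microglia and -0.34 for glia and immune genes, with 0 called, so that 3 of the 4 directions depend on young 1. Between old and young 2 these lists also lay mostly above 0 in other tissue. In all other spots and in the CA1 and CA3 reference spots described below, glia and immune medians were 0.58, 0.23 and 0.76. Myelin medians there were 0.06, 0.19 and 0.68, microglia medians 0.20, 0.30 and 0.60, and astrocyte medians -0.02, 0.14 and 0.21. C4b, a complement component, stood at 99.3, 11.5, 15.7, 11.1, 14.9 and 34.9 CPM in the members (1.16 ± 0.82, adjusted p = 0.887) and at 22.8, 16.5, 43.3, 43.4, 77.3 and 104 CPM in all other spots.

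**Figure D4:**
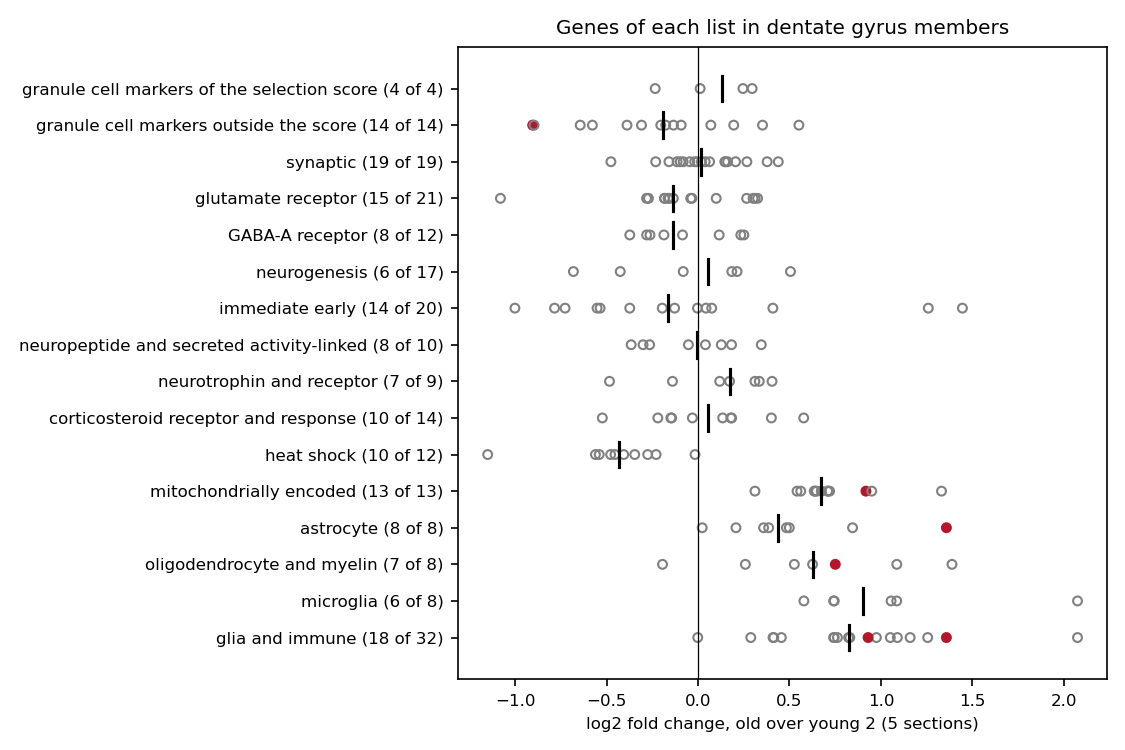
Log2 fold change between old and young 2 (x axis, 5 sections) of the tested genes of 16 lists (y axis, with the number tested of the number listed); 1 point per gene, red where called and grey otherwise, and a black bar at the list's median. The 10 heat shock genes lay at or below -0.02 and the 13 mitochondrially encoded genes at or above 0.31, with medians of -0.43 and 0.67.

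All 13 mitochondrially encoded genes were above 0 between old and young 2 (median 0.67, 1 called) and between middle and young 2 (median 0.80, 2 called), where 50.1% and 50.6% of all genes tested lay above 0 and 0.197% and 0.123% were called. mt-Nd5, a subunit of complex I, stood at 925, 402, 498, 823, 824 and 607 CPM and rose by 0.92 ± 0.20 in old and by 0.80 ± 0.20 in middle (edgeR, adjusted p = 0.00456 and 0.0495), called under 14 and 9 of 20 alternatives and lost in both with slide as a block. mt-Nd1 rose by 0.94 ± 0.22 in middle (edgeR, adjusted p = 0.0331, called under 10 of 20 alternatives and lost with slide as a block). Over all 6 sections the list's median in old was -0.30 with 0 called. Young 2 had the lowest mitochondrial share of the 6 member sums and young 1 the highest, and the part of RNA quality or of other cells in these values was not tested.

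Heat shock genes lay below 0 in both fits, with 0 called. All 10 tested of 12 were below 0 between old and young 2, with a median of -0.43, against 50.1% above 0 and a median of 0.00157 over all genes tested, and all 10 were below 0 with all 6 sections, with a median of -0.62. Hspa8, the most abundant, stood at 2148, 2276, 1691, 1541, 1648 and 1489 CPM, where both young sections lay above the other 4 (-0.45 ± 0.19, edgeR, adjusted p = 0.634). Hsp90aa1 stood at 1191, 856, 688, 610, 648 and 624 CPM, again with both young sections highest (-0.35 ± 0.18, adjusted p = 0.787). Hspd1 (197, 207, 114, 125, 134 and 134 CPM) and Dnaja1 (503, 456, 391, 327, 392 and 317 CPM) had the same order. Most members of young 1 were thalamic by their markers, so at that age only young 2 was mainly granule cell spots. The list also lay mostly below 0 between old and young 2 in other tissue. In all other spots 1 of 12 genes tested was above 0, with a median of -0.20. In the CA1 and CA3 reference spots described below, 2 of 11 and 0 of 10 were above 0, with medians of -0.19 and -0.21. Hspa1a stood at 35.3, 19.1, 8.73, 24.9, 12.4 and 13.4 CPM, with overlapping ages.

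Of the markers of new neurons, those of dividing cells and Dcx were at or below the limit of detection, while Sox11 and Neurod1 lay above it. Mki67, Top2a and Mex3a, genes of dividing or early progenitor cells, had 0 UMIs in the members of all 6 sections, which allows up to 8.31 CPM in the shallowest. Dcx, the microtubule protein of immature neurons, stood at 1.68, 3.83, 3.49, 0, 4.96 and 5.38 CPM, and Igfbpl1 had a UMI in middle 1 only. Of the 17 genes of the list 6 were tested, 3 above and 3 below 0, with 0 called and a median of 0.05. Sox11, a factor of immature neurons, stood at 18.5, 46.0, 33.2, 27.7, 37.2 and 26.9 CPM (-0.43 ± 0.45, adjusted p = 0.928). Neurod1, a factor of granule cell differentiation, stood at 28.6, 90.0, 73.3, 72.1, 59.6 and 45.7 CPM (-0.68 ± 0.33, adjusted p = 0.750). The ages of Neurod1 did not overlap outside young 1, with young 2 highest and old lowest. A change in Mki67, Top2a, Mex3a or Dcx was not detectable at this depth.

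Activity genes did not pass the test. Between old and young 2, 0 of 20 immediate early genes were above 0 in all other spots, with a median of -0.25. In the CA1 and CA3 reference spots 6 of 20 and 12 of 19 were above 0. In the members 14 of the 20 were tested, 5 above and 9 below 0, with a median of -0.16. Of all genes tested there, 50.1% lay above 0, with a median of 0.00157. Arc stood at 1.68, 40.2, 12.2, 16.6, 24.8 and 18.8 CPM (-0.78 ± 0.53), and Egr1 at 35.3, 40.2, 24.4, 61, 39.7 and 40.3 CPM (0.07 ± 0.44). Fos (26.9, 3.83, 6.99, 27.7, 9.93 and 10.8 CPM) and Junb (15.1, 42.1, 12.2, 47.1, 52.1 and 53.8 CPM) differed widely within young and within middle. The ages overlapped for Fos, while for Junb both old sections lay above every young and middle section. Egr3, the most abundant of the list in the 5 sections, stood at 20.2, 168, 190, 164, 104 and 116 CPM, with both old sections below young 2 and both middle sections (-0.54 ± 0.24, adjusted p = 0.711).

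Synapse and receptor genes did not pass between old and young 2. In all other spots 2 of 19 synaptic, 1 of 21 glutamate receptor and 2 of 12 GABA-A receptor genes were above 0. Their medians there were -0.16, -0.13 and -0.15, and in the CA1 and CA3 reference spots between -0.10 and 0.07. In the members 50.1% of all genes tested lay above 0, with a median of 0.00157. The 19 synaptic genes had a median of 0.02 with 10 above 0, 15 glutamate receptor genes tested of 21 a median of -0.14 with 5 above, and 8 GABA-A receptor genes tested of 12 a median of -0.14 with 3 above. Nrgn, the postsynaptic calmodulin binder neurogranin and the most abundant of the synaptic list in the 5 sections, stood at 777, 3469, 3667, 3209, 3211 and 3327 CPM (0.00 ± 0.21). Slc17a7, the vesicular glutamate transporter, stood at 617, 741, 1004, 801, 941 and 957 CPM, with young 2 lowest of the 5 sections (0.44 ± 0.19). Young 1 was lower still, and most of its members were thalamic by their markers. Gabrd, the delta subunit of extrasynaptic GABA-A receptors, stood at 219, 97.6, 108, 88.7, 94.3 and 126 CPM (0.25 ± 0.27), and Grin2a had a value of -0.16 ± 0.18.

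Secreted factors and hormone response genes did not pass either. Bdnf stood at 43.7, 88.1, 76.8, 91.5, 94.3 and 86.0 CPM (0.12 ± 0.29, adjusted p = 0.971). Outside young 1, Bdnf varied by less between ages than within the middle sections. Penk, the enkephalin precursor, stood at 10.1, 67, 27.9, 66.5, 39.7 and 59.1 CPM (-0.37 ± 0.36), and Pdyn, the dynorphin precursor of mossy fibres, at 21.9, 65.1, 92.6, 36.0, 62.0 and 64.5 CPM (0.04 ± 0.34). The 8 neuropeptide and activity-linked genes tested of 10 had a median of -0.01, and the 7 neurotrophin and receptor genes tested of 9 a median of 0.17. Of 10 corticosteroid genes tested of 14, 5 were above and 5 below 0, with a median of 0.05. Nr3c2 had a value of -0.22 ± 0.22 (edgeR, adjusted p = 0.926), and Nfkbia, at 6.99 to 22.3 CPM in the 5 sections, was not tested for want of counts.

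Between middle and young 2 the 6 higher calls were Ighm, Apoe, mt-Nd1 and mt-Nd5, Id2, an inhibitor of basic helix-loop-helix factors, and Gm42418, which overlaps ribosomal RNA sequence. Id2 stood at 150, 86.2, 176, 147, 146 and 172 CPM and rose by 1.02 ± 0.25 (edgeR, adjusted p = 0.0497), a call that held under 7 of 21 alternatives and was lost with slide as a block and with any 1 more section left out. Young 2 was lowest for Id2 and young 1 lay within the range of the rest. The 4 lower calls were Api5, Trpm7, Rfx3 and Calb1. This comparison and that of old with young share young 2. Between old and middle, which do not involve the young sections, Gm47283 and Ptgds were the 2 calls without young 1, and 0 were called with it in the shared fit.

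The question whether the dentate members changed with age more than other tissue of the same sections was tested as an interaction with section as a block. Against all other spots, 3 of 16967 genes (0.0177%) were called without young 1. Ighm differed by 1.33 ± 0.27 (edgeR, adjusted p = 0.0211), with other spots at 0.19 between old and young 2. Olig1 differed by 2.13 ± 0.46 (adjusted p = 0.0383), with other spots at 0.01. Sgk1, a kinase induced by corticosteroids, differed by 1.45 ± 0.32 (adjusted p = 0.0387). Its members stood at 148, 74.7, 69.9, 66.5, 72.0 and 83.3 CPM, level across ages outside young 1, while the other spots stood at 138, 175, 59.7, 77.3, 68.4 and 70.9 CPM, with both young sections above the rest. For Calb1 the difference was -0.75 (edgeR, adjusted p = 0.377) and for Gm47283 it was 0.07 (adjusted p = 1.00). Ighm was called under 12 and Sgk1 under 9 of 18 and Olig1 under 7 of 17 alternatives.

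With all 6 sections, 77 of 16499 genes (0.467%) were called against all other spots, 8 higher (0.0485%) and 69 lower (0.418%). The 3 with the largest fall were Shox2 (158 CPM in young 1 and 0 to 1.91 CPM in the other members), Btbd11 (75.7 CPM and 0 to 13.9 CPM) and Slc17a6, the vesicular glutamate transporter of the thalamus (318 CPM and 0 to 8.73 CPM). They were high in young 1 alone. The 3 with the largest rise were Ighm (2.25 ± 0.38, edgeR, adjusted p = 6.11e-06), Ttr (1.87 ± 0.37, adjusted p = 0.000357) and Kcnh3, a potassium channel (1.56 ± 0.40, adjusted p = 0.0258). Ttr stood at 119, 980, 55.9, 1025, 2849 and 1236 CPM and Kcnh3 at 8.41, 80.4, 89.1, 97.0, 102 and 110 CPM in the members. Of these 6, only Ighm was called without young 1.

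The nearest tissue to compare was the pyramidal layer of the hippocampus, taken as the 15 highest spots per section by CA1 markers and the 15 highest by CA3 markers. In young 1 the CA1 spots were weak as well, with 722 CPM of their markers against 1501 to 1650 CPM elsewhere. Without young 1, 3 of 10573 genes (0.0284%) were called, 1 higher (0.00946%) and 2 lower (0.0189%), and with it 0 of 10213 (0%), with 389 at an unadjusted p under 0.05. Calb1 differed by -1.31 ± 0.24 (edgeR, adjusted p = 0.000386, called under 16 of 18 alternatives), with values of 0.45 ± 0.20 in CA1 and 0.28 ± 0.77 in CA3 spots between old and young 2. The fall of Calb1 between young 2 and old was thus found in the dentate members and differed from the pyramidal spots by this test. A difference from all other spots was not called. With young 2 as the only young section, that cannot show whether the other spots share the fall. Cort, the interneuron peptide cortistatin, differed by -3.95 ± 0.72 (adjusted p = 0.000372), with members at 3.36, 42.1, 6.99, 2.77, 7.45 and 2.69 CPM, so that young 2 alone was high. Cort was called under 13 of 17 alternatives. Snhg11 differed by 0.74 ± 0.17 (adjusted p = 0.0342, called under 8 of 18 alternatives). For Ighm the difference was -0.24 (adjusted p = 0.999), with values of 1.83 ± 0.47 in CA1 and 1.74 ± 0.65 in CA3 spots, so a difference from the pyramidal layer was not found.

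**Figure D5:**
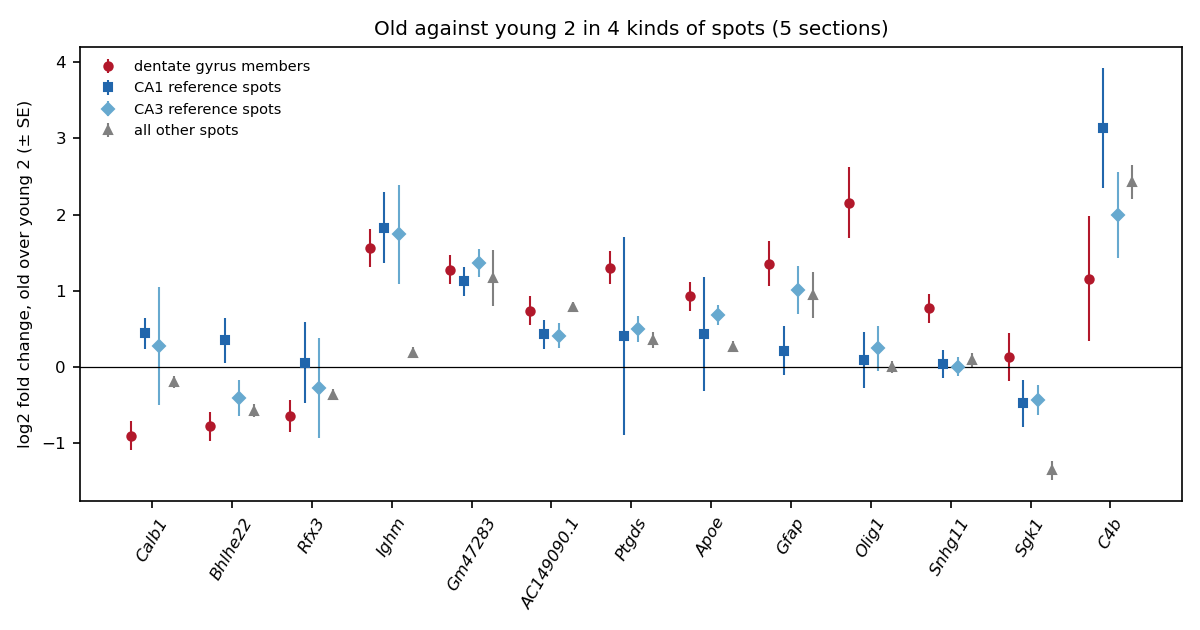
Log2 fold change between old and young 2 with its SE (y axis) of 13 genes (x axis) in the dentate members, the CA1 and CA3 reference spots and all other spots. Calb1 was at -0.90 in the members and at 0.45 and 0.28 in CA1 and CA3 spots, while Ighm was at 1.56, 1.83 and 1.74, against 0.19 in all other spots.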

How the data were processed

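Visium expression was measured in 6 brain sections. Each deposited value is the number of UMIs of a gene in a spot, an unnormalized count. Per the file headers the authors ran Space Ranger 1.3.1, whereas the submitters' processing notes list Space Ranger 3.1 and mm10. The annotation and the filter on spots are not given in the sources used here. Spot coordinates and images were not used. Spots under 500 UMIs were left out, member UMIs were summed per section, and CPM is a gene's UMIs per 1000000 of that sum. The deposited gene identifiers (32235 of 32285) were matched to GENCODE M21 (GRCm38) for positions.

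The sums entered the quasi-likelihood test of edgeR 4.0.16 in R 4.3.3 (TMM, filterByExpr, robust, older quasi-dispersion, age as the only term, two-sided, genes called at an adjusted p under 0.05) on all 6 sections, with 3 residual degrees of freedom. The fit without young 1 was added after the data had been seen. It had fewer residual degrees of freedom, and its p-values lean on a spread shared across genes. The common biological coefficient of variation was 0.093 in that fit and 0.253 with all 6 sections. The SE of an edgeR value was taken as its absolute log2 fold change over the square root of the test's F statistic. The pipeline was tested on simulated data. There young 1 was drawn from the means of the other sections, with a smaller spread than the 6-section fit had. The simulation therefore does not cover the different tissue of young 1. DESeq2 1.42.0 and other scalings, filters, scores, spot numbers and left-out sections were alternatives. The members and all gene lists were chosen with earlier results of these data known.

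Named genes were, per comparison and direction, up to 10 called genes of largest change with a mean of at least 10 CPM and no overlap. Where fewer than 5 were called, genes of smallest unadjusted p with a mean of at least 50 CPM and no overlap filled up to 5. Old against middle and the interactions took 3 per direction with no filling. A fixed set and the called or most abundant genes of each list were added. C1qa, Npnt, Trpc6, Tdo2, Rasl10a, Synpr, Neurod1, Egr3, Hspd1, Dnaja1, Gabra5 and the 10 B and plasma cell genes were chosen after their values were seen. Some genes are not reported here.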

Additional observations from a re-analysis of the deposited data

Results flagged for a closer look

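For these genes the difference between old and young in the dentate gyrus members was not the same as in other spots of the same sections, by a test of the difference itself (edgeR, interaction with section as a block, Benjamini-Hochberg adjusted p). In all 6 sections and against all other spots, Ighm (adjusted p = 6.11e-06), Ttr (0.000357) and Kcnh3 (0.0258) differed upwards, and Shox2 (2.61e-07), Btbd11 (1.33e-05) and Slc17a6 (3.69e-13) downwards. Of these 6, only Ighm was called without young 1, the section in which 9 of 15 members lacked the full granule cell signature. Without young 1, Ighm (adjusted p = 0.0211), Olig1 (0.0383) and Sgk1 (0.0387) differed from all other spots. Sgk1 did not pass in the members themselves (0.13, edgeR, adjusted p = 0.970), and its other spots stood at -1.36. Against the CA1 and CA3 reference spots, Calb1 (adjusted p = 0.000386) and Cort (0.000372) differed downwards and Snhg11 (0.0342) upwards, also without young 1. Each of these values without young 1 has young 2 as its only young section.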

How the results depend on the processing

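Counts of called genes depended on young 1 and on the tool. With 6 sections, leaving out 1 section gave 0 to 2179 genes for old against young, 0 to 2338 for middle against young, 0 to 2 for old against middle, 0 to 2206 for the age trend, 3 to 2011 for the difference from all other spots and 0 to 1527 for that from CA spots. The highest were without young 2, where young 1 was the only young section (old against middle: without young 1). With no filter the counts were 31 (old against young), 44 (middle against young) and 34 (difference from CA spots). Only the groups compared gave 2 for old against middle. Members with all 4 score genes gave 1 (old against young), 2 (trend) and 3 (difference from all other spots), and the 6 highest spots 1, 1 and 4, with 1 for CA spots. The trend gave 1 with DESeq2, with 10 spots and without C1ql2 in the score. The difference from all other spots (77) became 0 with DESeq2, 0 with at least 10 UMIs in every section, 0 with the newer quasi-dispersion, 0 with 30 spots, 15 when thinned, 5 with 10 spots and 6 without C1ql2. Shox2 turned from below 0 to 0.13 with the 6 highest spots; the causes of these shifts were not tested.

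Without young 1, old against young (16) became 0 with DESeq2, 8 thinned, 5 with slide as a block, 31 with only the groups compared, 3 with 10 spots, 41 with 30 spots, 6 without Dsp, and 2 to 32 with 1 more section left out. Middle against young (10) became 0 with DESeq2, 6 thinned, 2 with slide, 1 with only the groups compared, 0 with 10 spots, 68 with 30 spots, 17 without Prox1, 3 without C1ql2, 3 without Dsp, 6 without Lct, 5 without mitochondrial, haemoglobin and choroid plexus genes, and 0 to 61 with 1 more section left out. Old against middle (2) became 1 with DESeq2, no filter, the newer quasi-dispersion, thinning, 30 spots, and without Prox1 or Dsp, and 1 to 5 with 1 more section left out.
The difference from all other spots (3) became 0 with DESeq2, 0 with the newer quasi-dispersion, 0 when thinned, 0 with 10 spots, 1 with no filter, 21 with 30 spots, 5 without Prox1, 7 without C1ql2, 5 without Dsp, and 0 to 19 with 1 more section left out. The difference from CA spots (3) became 0 with DESeq2, 1 when thinned, 1 without Lct, 9 without C1ql2, and 3 to 17 with 1 more section left out. The causes were not tested.

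Deviations of same-numbered sections had correlations of -0.17 for young and middle, 0.08 for young and old and -0.03 for middle and old. Young 1, middle 1 and old 1 also shared slide 1, and middle 2 and old 2 shared slide 2. The young deviation carries the different tissue of young 1, so these values cannot decide what such sections share. The replicate block gave 0 genes in each comparison of all 6 sections, and 14 (old against young), 9 (middle against young) and 2 (old against middle) without young 1. With member sums down to 360845 UMIs, 3 UMIs are 8.31 CPM, and changes in genes near that level were not detectable.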

Other observations

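Inhibitory, vascular and interferon transcripts were also present in the members. Gad1, the enzyme that makes GABA, stood at 35.3, 272, 295, 200, 271 and 245 CPM in young 1, young 2, middle 1, middle 2, old 1 and old 2, which is 0.961 times the other spots (median of the 5 sections other than young 1). Npy, a peptide of hilar interneurons, stood at 16.8, 117, 83.8, 99.8, 107 and 145 CPM. Outside young 1 the middle sections were lowest for Npy and the ages overlapped for Gad1, and neither passed in edgeR (adjusted p = 0.995 and 0.938 for old against young 2). Lhx6, a factor of interneurons from the medial ganglionic eminence, had UMIs in middle 1 and old 2 only. Cldn5, a tight junction protein of brain endothelium, stood at 30.3, 21.1, 14, 22.2, 47.2 and 40.3 CPM, with both old sections above the other 4 (1.13 ± 0.50 without young 1, edgeR, adjusted p = 0.693). Ifi27, an interferon response gene, stood at 25.2, 15.3, 22.7, 38.8, 49.6 and 40.3 CPM, with both old sections highest (1.62 ± 0.54, edgeR, adjusted p = 0.316). Of the 15 interferon response genes, 2 had enough counts for a test without young 1.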
